A study of Drosophila melanogaster with 2 samples.

Results

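The Antennapedia complex of Drosophila melanogaster is a run of developmental genes on chromosome arm 3R, and its 10 genes examined here were the Hox genes lab, pb, Dfd, Scr and Antp and the other members ftz, bcd, zen, zen2 and Ama. They were chosen by name as members of the complex, whatever their values, and are 10 of 13945 annotated protein-coding genes on the 6 chromosome arms that carried peaks. All peak summits from lab to Antp and 20 kb beyond either end were taken, an interval of 377.8 kb at chr3R:6641427-7019228 (dm6). The measurement was chromatin immunoprecipitation with sequencing (ChIP-seq) of Spps, using an antibody to GFP on whole embryos aged 0 to 12 hours from a transgenic line that stably expresses Spps with GFP at its C terminus. There was 1 group of 2 biological replicates and no second condition, so counts, signals and ranks are given as a description without a test between conditions. Whole embryos mix all cell types, and a strong site in few cells cannot be told apart from a weak one in many.

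Hox genes encode homeodomain transcription factors that give body segments their identity along the head-to-tail axis. In this complex lab, pb, Dfd and Scr act in the head and first thoracic segment and Antp in the thorax, while ftz, bcd and zen descend from Hox genes and have taken other roles in the early embryo. Spps is a zinc-finger protein of the Sp1/KLF family that was identified at Polycomb response elements, the DNA elements through which Polycomb group proteins keep Hox genes silent outside their domains. Ama encodes a secreted adhesion protein with immunoglobulin domains and has no homeobox.

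The shortest deposited list is the authors' IDR list, named for the irreproducible discovery rate, a measure of how well peak ranks agree between replicates. As deposited, its 3260 summits are the 3260 strongest of the pooled list, so here it amounts to a limit on pooled signal, and 3251 of them had a summit in both replicate lists. The complex, counted here and below with the 20 kb on either side, held 11 of the 3260 IDR summits. It held 84 of 30000 in the list called on pooled replicates, 94 of 30000 for replicate 1 and 95 of 30000 for replicate 2. From lab to Antp alone there were 10 IDR and 77 pooled summits. Antp held 4 of the 11, lab held 2 and Ama held 1, a pair lay between bcd and Ama, 1 lay in a non-coding RNA gene between ftz and Antp, and 1 lay outside lab. The strongest was at Ama, with a pooled signal of 423.5 against 269.2 for the next, which lay in Antp. No IDR summit lay in or within 2 kb of pb, Dfd, Scr, ftz, zen or zen2. The signal is the value the authors' peak caller gave to each peak, and rank 1 is the highest signal in a list.

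Sequences around 6 of the summits are shown because they are the strongest site of the complex, the site at the bcd start, the strongest site of lab, and 3 of the 4 sites of Antp. They are the plus strand of RefSeq's release 6 assembly, whose coordinates are those of dm6, within 100 bp of the summit and trimmed where an annotated untranslated region began. Capitals mark GCCAT (the core bound by Pho, a Polycomb group protein), CGATA (bound by the insulator protein BEAF-32) and AAGGTAA, each on either strand. AAGGTAA was picked on reading these same windows. Other searched words, described below, are present but not marked. They are Zeste words at the bcd start, GTGTGT in the lab intron and GAGAG in the Antp window around 6914539.
Ama intron, chr3R:6762980-6763174: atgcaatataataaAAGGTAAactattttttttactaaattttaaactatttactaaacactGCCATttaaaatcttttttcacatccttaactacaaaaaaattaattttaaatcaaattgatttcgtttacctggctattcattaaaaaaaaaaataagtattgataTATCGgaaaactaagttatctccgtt
bcd start, chr3R:6759467-6759658: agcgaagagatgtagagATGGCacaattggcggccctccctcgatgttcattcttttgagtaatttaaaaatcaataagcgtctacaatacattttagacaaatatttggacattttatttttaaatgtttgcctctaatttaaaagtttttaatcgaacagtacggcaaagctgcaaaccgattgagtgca
lab intron, chr3R:6667350-6667550: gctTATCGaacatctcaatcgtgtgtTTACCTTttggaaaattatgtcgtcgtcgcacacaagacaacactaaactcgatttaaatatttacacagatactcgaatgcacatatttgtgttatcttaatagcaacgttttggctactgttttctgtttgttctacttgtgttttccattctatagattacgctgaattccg
Antp intron, chr3R:6903352-6903552: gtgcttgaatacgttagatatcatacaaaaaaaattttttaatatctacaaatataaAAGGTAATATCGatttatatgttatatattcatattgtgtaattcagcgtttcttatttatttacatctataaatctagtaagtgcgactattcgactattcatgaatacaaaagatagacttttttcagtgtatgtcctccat
Antp intron, chr3R:6914439-6914639: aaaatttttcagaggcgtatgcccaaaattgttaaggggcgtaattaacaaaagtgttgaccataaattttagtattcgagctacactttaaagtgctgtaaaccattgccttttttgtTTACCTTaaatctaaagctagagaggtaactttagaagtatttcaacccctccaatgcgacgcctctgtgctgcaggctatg
Antp intron, chr3R:6936269-6936469: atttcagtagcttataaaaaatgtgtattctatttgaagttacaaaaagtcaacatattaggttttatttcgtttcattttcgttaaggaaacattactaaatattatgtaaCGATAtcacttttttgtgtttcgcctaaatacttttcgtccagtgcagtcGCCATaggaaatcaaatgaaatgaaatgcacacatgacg

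The density of Spps summits in the complex was close to that of the arm as a whole. The IDR list had 2.91 summits per 100 kb in the complex and 2.46 per 100 kb on arm 3R, a ratio of 1.18 with an exact 95% Poisson interval of 0.589 to 2.11. The pooled list had 22.2 and 21.6 summits per 100 kb, a ratio of 1.03. Intervals here cover counting error only. Individual IDR summits of the complex had a median pooled signal of 204.5, against 155.5 over all IDR summits, and 5 of the 11 (45.5%) stood among the 1000 strongest, against 30.7% of all IDR summits. Over the whole pooled list the medians were close, at 38.08 in the complex and 37.43 over all pooled summits.

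**Figure D1:**
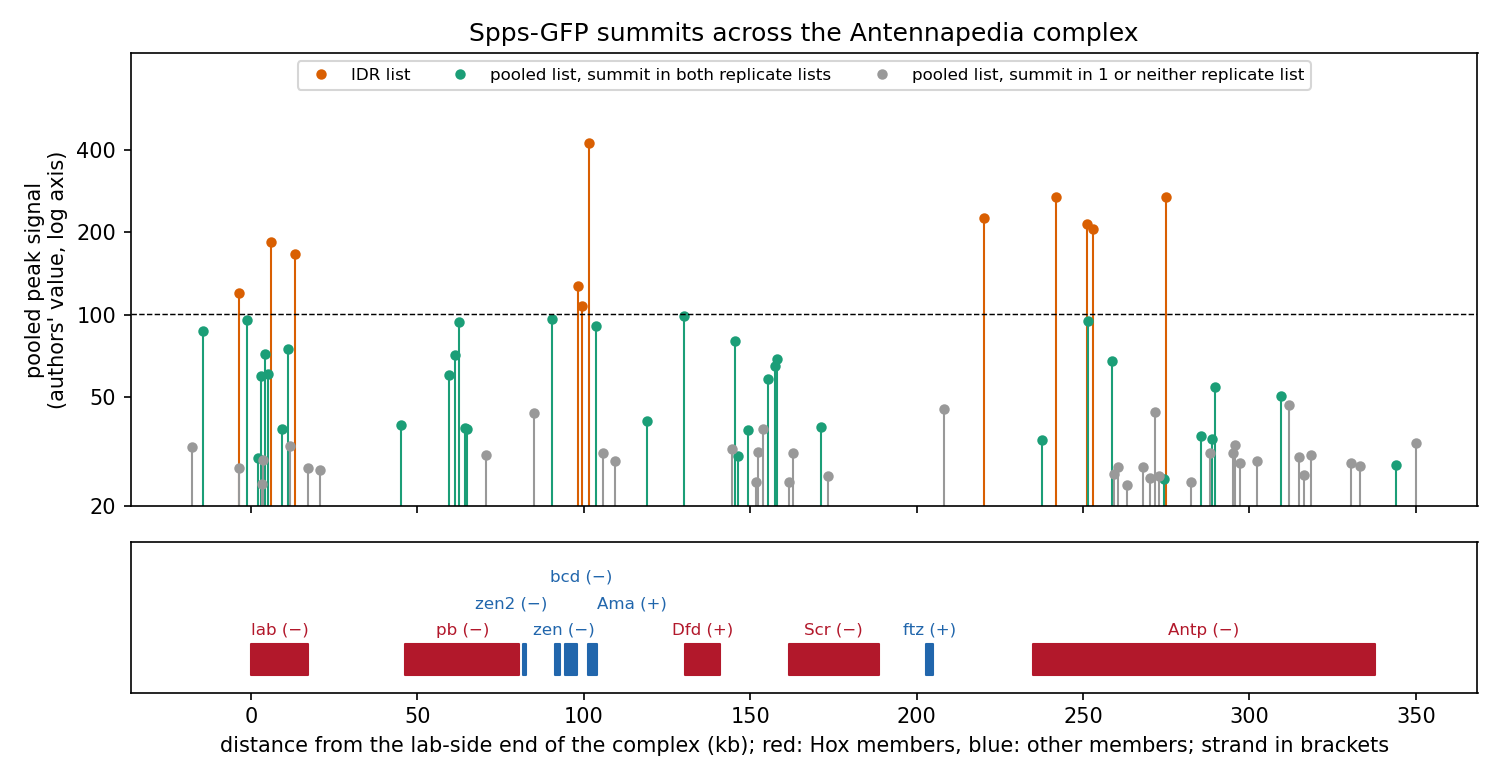
Pooled peak signal (log axis) of the 84 summits from 20 kb outside lab to 20 kb outside Antp, by distance from the lab-side end of the complex in kb, with the 10 genes drawn below and their strand in brackets. The dashed line is the lowest signal in the IDR list, 100.6, and 11 summits lie above it, the highest at Ama.

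Among the Hox members, lab, which patterns the most anterior of the Hox-dependent head segments and part of the midgut, had both of its IDR summits in introns. The one at position 6667450 had a signal of 107.5 in replicate 1 (rank 1387) and 66.9 in replicate 2 (rank 1412), with a pooled signal of 184.7 (rank 1241), and lay 3996 bp upstream of an internal start of lab. The one at 6674754 had 124.9 in replicate 1 (rank 1056) and 42.95 in replicate 2 (rank 2993), with a pooled signal of 165.7 (rank 1469), and lay 3836 bp downstream of the gene's outer start. Relative to the median peak of its own list, this second summit stood at 5.05-fold in replicate 1 and 2.45-fold in replicate 2, the widest gap between replicates among the 11. In all, lab held 11 pooled summits in 17.16 kb, of which 8 were found in both replicate lists.

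Of lab's pair of annotated starts, neither had an IDR summit within 500 bp. The pooled list had a weak summit 90 bp upstream of the outer start, with a signal of 27.48 (rank 24268), matched in replicate 1 at 31.62 and unmatched in replicate 2. Another weak summit, 37 bp upstream of the inner start, had a pooled signal of 30.08 (rank 21095) and was found at 18.86 in replicate 1 and 16.64 in replicate 2.

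The gene pb, which specifies the adult mouthparts, had 6 pooled summits in its 34.26 kb and no IDR summit. Its strongest, in an intron 18096 bp downstream of the start, had 45.76 in replicate 1 (rank 5549) and 40.11 in replicate 2 (rank 3359), with a pooled signal of 93.65 (rank 3636). No pooled summit lay within 500 bp of the start of pb. Replicate 1 alone listed one there, 226 bp upstream, at a signal of 26.36 (rank 13530).

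Dfd, needed for the mandibular and maxillary segments, had no pooled summit inside its 10.59 kb and a single one at its start, 382 bp upstream. That summit had 61.52 in replicate 1 (rank 3432) and 29.69 in replicate 2 (rank 5594). Its pooled signal of 99.15 (rank 3337) was just under the lowest signal in the IDR list, 100.6. It was the strongest summit of the complex outside that list. Inside Dfd, replicate 2 alone listed 1 summit.

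Scr, which specifies the labial and first thoracic segments, held 3 pooled summits in 26.86 kb, the strongest within 2 kb having a signal of 39.0 (rank 14005). A single one of them was found in both replicate lists. The pooled summit nearest to a start of Scr lay 13684 bp inside the gene, at a signal of 25.82 (rank 26589). That strongest summit was weaker than the strongest one in or within 2 kb of each other Hox member. Outside the gene, the 20.7 kb between Dfd and Scr held 11 pooled summits and no IDR summit, and 6 of the 11 were found in both replicate lists. The strongest of these, 15153 bp downstream of the Dfd start and beyond the gene's end, had 62.12 in replicate 1 (rank 3374) and 25.83 in replicate 2 (rank 7264), with a pooled signal of 80.24 (rank 4609).

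Antp, which specifies thoracic identity and is the longest of the 10 genes at 103.0 kb, held 31 pooled summits, 12 of them found in both replicate lists. Its 4 IDR summits all lay in introns of Antp. The strongest, at 6903452, had 173.6 in replicate 1 (rank 564) and 94.29 in replicate 2 (rank 779), with a pooled signal of 269.2 (rank 620), and also fell in a non-coding exon of lncRNA:CR43252 and an intron of CG46458. The next, at 6936369 and 3529 bp upstream of the innermost of the 3 annotated Antp starts, had 148.8 in replicate 1 (rank 766) and 119.0 in replicate 2 (rank 471), with a pooled signal of 267.5 (rank 627). Both replicates thus placed these sites among their 1000 strongest.

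The other IDR summits in Antp were close neighbours. The one at 6912593 had 136.8 in replicate 1 (rank 881) and 81.42 in replicate 2 (rank 1032), with a pooled signal of 214.6 (rank 948). The one at 6914539 had 117.2 in replicate 1 (rank 1187) and 87.28 in replicate 2 (rank 909), with a pooled signal of 204.5 (rank 1038). A further summit at 6912792 missed the IDR list at a pooled signal of 94.64 (rank 3577), with 53.6 in replicate 1 (rank 4351) and 54.89 in replicate 2 (rank 1956). None of the Antp starts had an IDR summit within 500 bp. Weak pooled summits lay 231 bp upstream of the innermost start, at a signal of 44.09 (rank 11583), and 184 bp upstream of the middle one, at 28.66 (rank 22734). Both were matched in replicate 1 and unmatched in replicate 2.

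Among the non-Hox members, the strongest summit of the complex lay at 6763074, in an annotated intron of Ama and of the opposite-strand lncRNA:CR45593. It had 258.2 in replicate 1 (rank 228) and 164.6 in replicate 2 (rank 214), with a pooled signal of 423.5 (rank 214), at 10.4-fold and 9.40-fold the median peak of the replicate lists. It lay between the annotated starts of Ama, 481 bp downstream of the outer one and 330 bp upstream of the inner one. A weaker pooled summit in the 3′ end of Ama, 1711 bp downstream of the inner start, had a signal of 90.73 (rank 3843) and was found at 54.88 in replicate 1 and 37.16 in replicate 2.

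The gene bcd, whose maternal mRNA sets up the anterior of the embryo, was the only other member with an IDR summit at its start, 92 bp upstream. This summit had 86.87 in replicate 1 (rank 1964) and 48.33 in replicate 2 (rank 2426), with a pooled signal of 126.7 (rank 2250). A second, 1504 bp upstream of bcd in the space between bcd and Ama and within 2 kb of either gene, had 69.49 in replicate 1 (rank 2784) and 34.14 in replicate 2 (rank 4379). Its pooled signal, 107.5 (rank 2924), was the lowest of the 11.

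The early dorsal regulator zen had no summit inside its 1.331 kb. The nearest in the pooled list, 2254 bp downstream of the start and past the end of the gene, had 57.5 in replicate 1 (rank 3855) and 34.63 in replicate 2 (rank 4276), with a pooled signal of 96.0 (rank 3491). Replicate 2 alone listed a weaker one 1539 bp upstream of the start, at 16.09 (rank 17691). Its duplicate zen2 and the pair-rule gene ftz had no pooled summit in the gene or within 2 kb. Replicate 1 alone listed a summit inside zen2, 447 bp downstream of a start, at 24.84 (rank 14917). For ftz neither replicate list had one, and the nearest pooled summit lay 5245 bp downstream of the start at a signal of 45.23 (rank 11157). Each list stops at 30000 peaks, so a missing summit is one below that limit and does not show an absence of Spps.

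The remaining IDR summits belonged to no member gene. One, in an intron of lncRNA:CR44931 and 17482 bp downstream of the ftz start, had 129.1 in replicate 1 (rank 983) and 91.96 in replicate 2 (rank 832), with a pooled signal of 225.8 (rank 866). The next pooled summit on its Antp side was 17.2 kb away. The other lay in the 20 kb beyond lab, 218 bp upstream of CG1307 and 222 bp upstream of the divergent gene twr. It had 61.22 in replicate 1 (rank 3463), 56.27 in replicate 2 (rank 1885) and a pooled signal of 119.6 (rank 2465). On the same side, a summit in the 5′ untranslated region of agt, a DNA alkyltransferase gene, just missed the IDR list at a pooled signal of 95.67 (rank 3508), with 50.28 in replicate 1 (rank 4793) and 44.72 in replicate 2 (rank 2782).

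**Figure D2:**
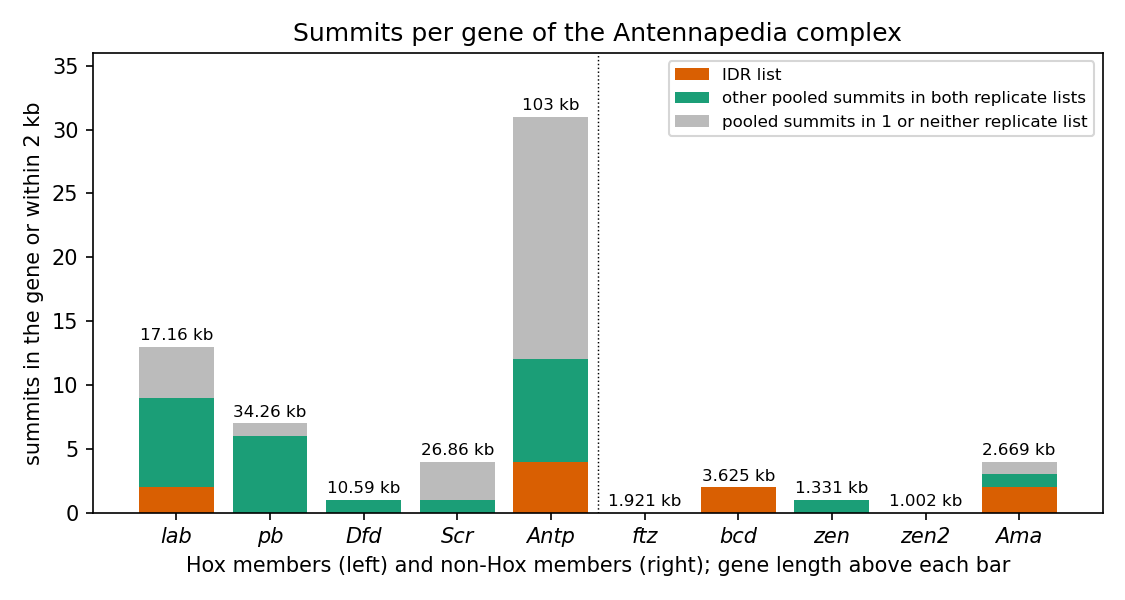
Number of summits in each gene or within 2 kb of it, Hox members on the left and non-Hox members on the right, with the gene's length above each bar; stacked colours give IDR summits, other pooled summits found in both replicate lists, and the rest. Antp has the tallest bar with 31 summits, and ftz and zen2 have none.

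Counted as genes, 2 of the 10 members (Ama and bcd) had an IDR summit within 500 bp of an annotated start, beside 13.6% of all protein-coding genes. With the whole gene and 2 kb around it, 4 of 10 (lab, Antp, bcd and Ama) had an IDR summit, beside 26.0% of all genes. In the pooled list 5 of 10 had a summit at a start, beside 55.1%, and 8 of 10 had one in the gene or within 2 kb, beside 76.3%. Those 8 also had a pooled summit found in both replicate lists, beside 60.9% of all genes. With 10 genes, 1 gene is 10 percentage points, so the first 2 pooled counts lie within 1 gene of the share over all genes, and the last within 2 genes.

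The IDR summits of Hox members all lay away from starts, while bcd and Ama each had one at a start. None of 5 Hox members and 2 of 5 non-Hox members had an IDR summit at a start, beside 13.6% of all genes. In the pooled list 3 of 5 Hox and 2 of 5 non-Hox members had a summit at a start, each within 1 gene of the 55.1% of all genes. With 5 genes on either side, no difference between the classes is read from these counts. An IDR summit in the gene or within 2 kb was found for 2 of 5 Hox and 2 of 5 non-Hox members, beside 26.0%. In the pooled list, 5 of 5 Hox and 3 of 5 non-Hox members had a summit in the gene or within 2 kb, beside 76.3% of all genes. The Hox members are far longer, with a median of 26.86 kb against 1.921 kb, and all 5 are over 10 kb while all 5 others are shorter. Over all protein-coding genes, 46.1% of those of 10 kb or longer and 22.7% of shorter ones had an IDR summit in the gene or within 2 kb. Per length, Hox members held 2.66 pooled summits per 10 kb (51 in 191.9 kb) and non-Hox members held 1.9 per 10 kb (2 in 10.55 kb). For IDR summits the values were 0.313 per 10 kb in Hox members (6 summits) and 0.948 per 10 kb in non-Hox members (1 summit). Both non-Hox values come from Ama alone, as ftz, bcd, zen and zen2 held no summit of either list. No direction by class is therefore read from them. Length and class cannot be told apart in these 10 genes.

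The IDR summits of the complex lay mostly away from starts. Of the 11, 7 were in introns, 1 was in a non-coding exon and 3 were intergenic, and 7 were inside a member gene. Their median distance to an annotated start of any gene was 3472 bp, against 683 bp over all IDR summits. Within 500 bp of a start lay 3 of 11 (27.3%), against 45.8% of all IDR summits, and more than 2 kb away lay 6 of 11 (54.5%), against 32.5%. The pooled list showed the same order, with 17 of 84 (20.2%) within 500 bp of a start against 32.3% of all pooled summits. Of the 11 IDR peaks, 6 were narrower than the list's usual 376 bp, against 33.1% of all IDR peaks. The narrowest, 138 bp wide, was the strongest one of Antp. These were the 6 strongest of the 11, with pooled signals of 204.5 or more. Narrow width went with signal throughout, as 1080 IDR peaks but only 1093 of all 30000 pooled peaks were narrower than usual. The share of narrow peaks thus cannot be told apart from the higher signal of these sites.

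Some members lay in long stretches without a pooled summit. The longest stretch between neighbouring pooled summits, 34.7 kb, held all of ftz and the starts of Scr and ftz, and was longer than 98.5% of such gaps on arm 3R. It was picked as the longest of the complex, so this share only gives its size. The next, 24.5 kb, ran between lab and pb and held the cluster of 8 cuticle protein genes (Ccp84Aa to Ccp84Ag and Edg84A). None of those 8 had an IDR summit in the gene or within 2 kb, beside 26.0% of all genes and 22.7% of genes under 10 kb. In the pooled list 1 of 8, Ccp84Aa, had one, at a signal of 39.48 (rank 13720), beside 76.3% of all genes. Because IDR summits are part of the pooled list, genes inside such a gap can have neither except near its ends. These counts therefore restate the gap, and the 8 neighbouring genes are not separate observations. A gap of 14.5 kb held the whole of Dfd, and one of 14.4 kb held zen2 and the start of pb. The replicate lists placed 2 summits inside the longest gap and 3 inside the next. They placed 5 inside the gap that held Dfd and 4 inside the one that held zen2 and the start of pb.

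Replicates agreed on the strong summits of the complex and parted on the weak ones. A summit counted as found in both when each replicate list had one within 200 bp. This was so for 11 of 11 IDR summits, against 99.7% of all IDR summits, with replicate summits at most 54 bp (replicate 1) and 59 bp (replicate 2) away. Because the IDR list was derived from both replicate lists and the pooled list, that match was largely set by the selection. Among pooled summits, 45 of 84 were found in both, 53.6% with an exact Clopper-Pearson 95% interval of 42.4% to 64.5%, against 50.2% of all pooled summits. Of the rest, 25 were in replicate 1 alone, 11 in replicate 2 alone and 3 in neither. Among ranks 3261 to 10000, 20 of 20 were in both (83.2% to 100%), against 89.6% of all; among ranks 20001 to 30000, 4 of 28 were (14.3%, interval 4.03% to 32.7%), against 10.2% of all.

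**Figure D3:**
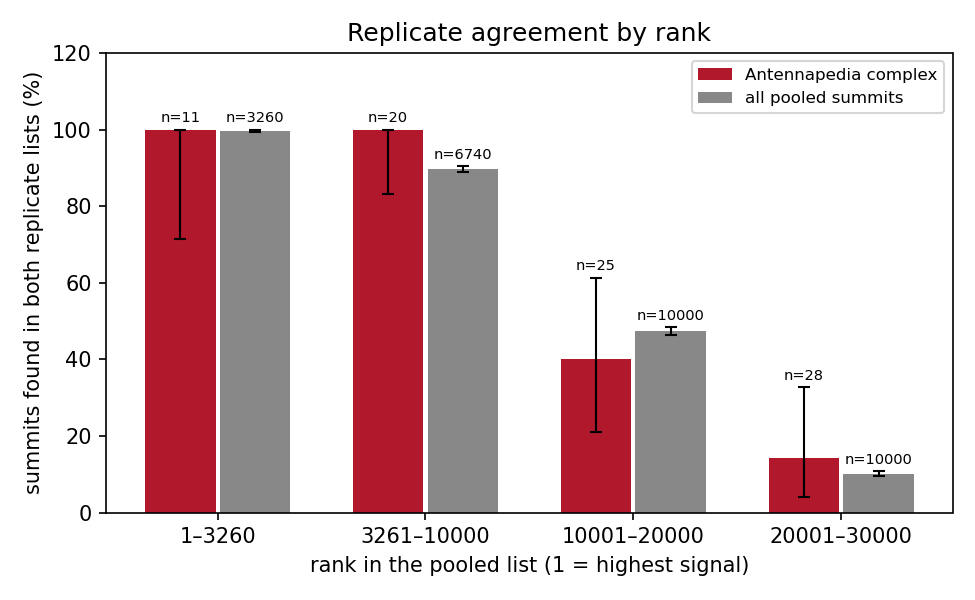
Percent of pooled summits found in both replicate lists, by rank in the pooled list, for the complex (left bar of each pair) and for all pooled summits (right bar), with exact 95% Clopper-Pearson intervals that cover counting error and the number of summits above. The share for the complex drops from 100% in the upper bands to 40.0% and 14.3% in the lower ones, and in each of the 4 bands its interval holds the share of all pooled summits.

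Signals of the 11 IDR summits, each divided by the median of its replicate list, differed between replicates by a median log2 ratio of 0.19 (replicate 1 over replicate 2; SD 0.38, n = 11 summits). The range was −0.38 at the CG1307 summit to 1.04 at the outer lab intron. Over all IDR summits the median was also 0.19 and the SD 0.47. In both replicates 10 of the 11 were among the upper 3260 peaks; the exceptions were the CG1307 summit in replicate 1 and the summit between bcd and Ama in replicate 2. Ama ranked above the other 10 in each replicate. Next after it came the Antp summit at 6903452 in replicate 1 and the one at 6936369 in replicate 2, so neighbours in the order changed places between replicates.

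**Figure D4:**
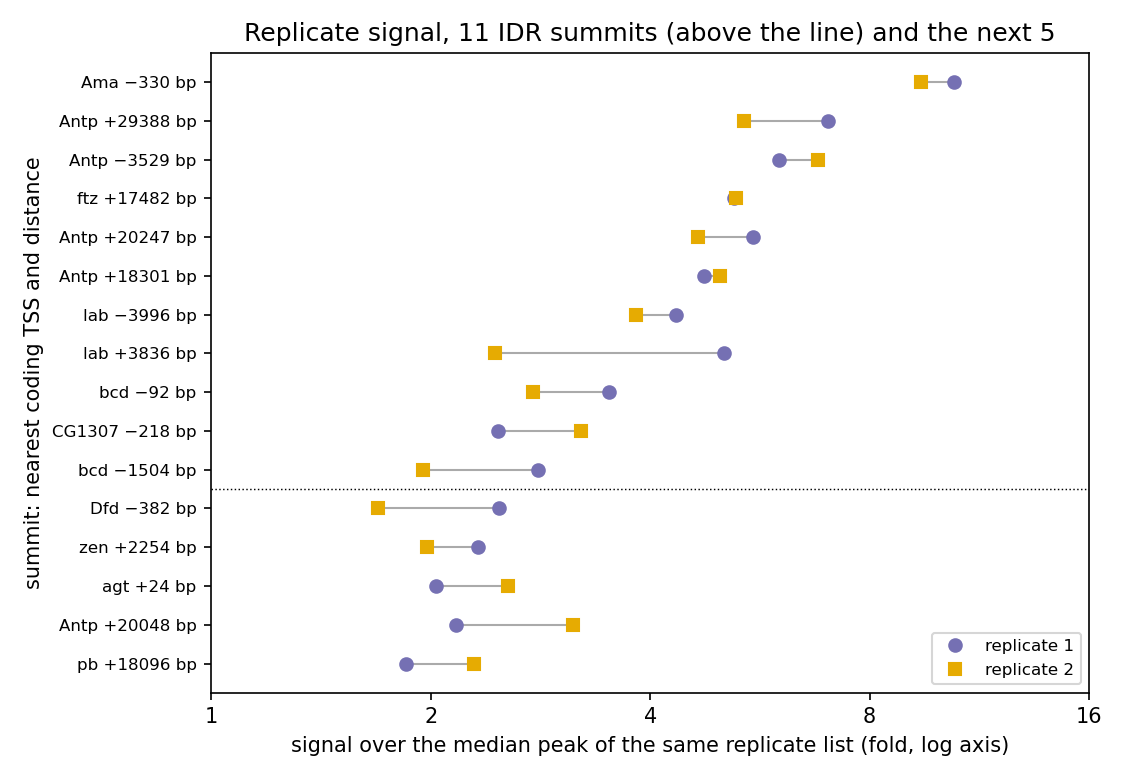
Signal over the median peak of the same replicate list (log axis) in replicate 1 (circles) and replicate 2 (squares) for the 11 IDR summits, ordered by pooled rank, and below the dotted line the 5 strongest pooled summits outside the IDR list; labels give the nearest coding start and the distance. Ama stands at 10.4-fold and 9.40-fold, and the outer lab intron (+3836 bp) shows the widest gap between replicates.

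Words searched within 100 bp of the 11 IDR summits were described beside their share in all 3260 IDR windows. CGATA occurred in 6 of 11 windows (54.5%), against 25.9% of all, and in the pooled list in 23.8% of windows of the complex against 24.8% of all. GCCAT occurred in 4 of 11 (36.4%), at bcd, Ama, the outer lab intron and the Antp summit at 6936369, against 24.0%, while in the pooled list it occurred in 22.6% of windows of the complex against 31.2% of all. GAGAG, the repeat bound by GAGA factor, occurred in 1 of 11 (9.09%) against 21.2%, and GTGTGT, bound by Combgap, in 1 of 11 against 12.0%. In the pooled list these words were not scarcer in the complex, with GAGAG in 23.8% of its windows against 22.9% of all and GTGTGT in 23.8% against 15.0%. The words of the Zeste protein (TGAGTG or CGAGTG, also TGAGCG or CGAGCG) occurred in 1 of 11 against 21.7%, and in the pooled list in 28.6% of windows of the complex against 26.7% of all. None of the 11 held the Sp/KLF words GGGCGG (2.48% of all) or GGGTG (15.0% of all), the Zelda word CAGGTAG (0.798%) or the DRE word TATCGATA (2.7%). In the pooled list GGGTG occurred in 20.2% of windows of the complex against 20.1% of all, and GGGCGG in 4.76% against 5.86%. There CAGGTAG occurred in 0.0% against 1.03%, and TATCGATA in 1.19% against 1.94%. All words were read on both strands; GGGTG and the others were counted separately, and CGATA is contained in TATCGATA. The windows were rich in A and T, with a median GC content of 28.4% against 32.8% over all IDR windows, and 20.4% at Ama.

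A further word was noticed on reading the 11 windows. AAGGTAA, on either strand, occurred in 6 of 11 (54.5%) and in 3.53% of all IDR windows, and the longer AAGGTAAAC, which contains it, in 4 of 11 against 0.429%. In the 73 pooled windows of the complex outside the IDR list, which did not prompt the search, AAGGTAA occurred in 2 (2.74%), against 2.66% of all pooled windows outside the IDR list. The 6 windows were those of CG1307, the inner lab intron, Ama and the Antp summits at 6903452, 6912593 and 6914539. Because the word was picked from these windows, its share in them is a description of how it was found and has no test.

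The bithorax complex, the other Hox cluster of the fly, served for comparison over Ubx, abd-A and Abd-B and 20 kb outside. The Antennapedia complex held 11 IDR summits in 377.8 kb and the bithorax complex 7 in 355.6 kb, with 84 and 92 pooled summits. The highest pooled signal was 423.5 in the Antennapedia complex and 244.2 in the bithorax complex, and the median IDR signal was 204.5 and 159.9. An IDR summit in the gene or within 2 kb was found for 2 of 5 Antennapedia complex Hox genes and 2 of 3 bithorax genes (Ubx and Abd-B), beside 26.0% of all genes and 46.1% of genes of 10 kb or longer, the class of all these Hox genes. No gene of either group had one at a start, beside 13.6% of all genes, and with so few genes this lies near that share. Shares found in both replicates were 53.6% of pooled summits in the Antennapedia complex and 45.7% in the bithorax complex, with overlapping intervals. Of 10 genes that act with Hox proteins or are regulated by them, 2 had an IDR summit at a start, beside the 13.6% of all genes: the limb gene Dll, 11 bp upstream at a signal of 130.7 (rank 2137), and the salivary gland gene fkh, 245 bp upstream at 204.0 (rank 1041). Also hth, which encodes a cofactor of Hox proteins and is 132.0 kb long, had 5 in the gene or within 2 kb, the strongest at 325.3 (rank 395). The genes exd, tsh, disco, dpp, wg, rpr and Con had none in the gene or within 2 kb. In all, 3 of these 10 genes had one there, beside 26.0% of all genes. All 10 had a pooled summit at a start, beside 55.1% of all genes. For the Hox members of the Antennapedia complex this was 3 of 5, near that share. The 10 genes were chosen with earlier results of these data known, so no contrast is drawn from their count.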

How the data were processed

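Spps-GFP ChIP-seq was done on 2 biological replicates of whole embryos. The authors deposited peak lists on dm6 for each replicate, for both together and after IDR selection. Per the file listings deposited with the samples, both replicates were called against the same 1 control, and the IDR list was derived from both replicate lists and the pooled list. Each deposited peak carries a signal value and a −log10 q-value, which is 3.96 for all 3260 IDR peaks, so signal was used for ranks. The IDR summits are the strongest 3260 of the pooled list. No source used here gives the aligner, peak caller, IDR threshold or read depth. Each replicate and pooled list holds 30000 peaks. Signal scales differ between lists, so replicates were compared by rank or relative to the list's median.

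Summits were placed on Ensembl release 115 gene models (BDGP6.54), without transposable elements. A start counted as occupied within 500 bp of any annotated start, and a gene within 2 kb. Replicate summits matched within 200 bp. RefSeq sequence was searched within 100 bp of summits; 9 known words were searched, and 2 were added after reading the windows. Python 3.11.15, pandas 2.3.3, NumPy 2.4.6, SciPy 1.17.1 and matplotlib 3.10.9 were used, and counting was tested on simulated peaks. The genes, lists and comparisons were chosen with earlier results of these data known. All 10 members were named, with each IDR summit of the interval, the genes holding or nearest to one, and the 5 strongest pooled summits outside the IDR list. Alternatives covered the promoter, gene and match windows, list length, interval ends, assignment of ftz and single replicates.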

Additional observations from a re-analysis of the deposited data

How the results depend on the processing

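No paired analysis was possible because there is 1 group and the results come from no test. Of 34 alternative values, 25 stayed within 1.5 times the main count or within its interval and 9 did not. A change of direction could not be scored, because the only signed result had a main value of 0. With the 1000 strongest IDR peaks alone, the complex kept 5 summits of 11, members with a summit at a start numbered 1 against 2, and those with one in the gene or within 2 kb numbered 2 against 4. With the pooled list these were 5 and 8 members. A 250 bp window left 1 member, since the Ama summit lies 330 bp from the nearer start. The excess of Hox over non-Hox members with an IDR summit, 0 in the main count, was 1 without the 2 kb margin and 2 in the pooled list. Agreement between replicates was 72.1% of pooled summits in the upper 15000 of each list, against 53.6%. Taking the upper 3260 peaks of a single replicate in place of the IDR list gave 10 to 13 summits in the complex, with 2 members at a start and 4 within 2 kb in each case. Depth in reads is unknown. Of all pooled summits, 47.4% at ranks 10001 to 20000 and 10.2% at ranks 20001 to 30000 were found in both replicates, and the cause was not tested.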
